A study of Mus musculus with 51 samples.

Results

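A set of 6731 progenitor H3K27ac peaks that had lost both enhancer marks by the late astrocyte stage was examined. These peaks, called members here, were chosen by 4 values read from the peak lists. A member carried H3K27ac in astrogliogenic neural progenitor cells (aNPC), overlapped no H3K27ac peak of early (eA) or late (lA) astrocytes, overlapped an aNPC H3K4me1 peak, and overlapped no lA H3K4me1 peak, with an overlap of 1 bp or more counted in each case. They made up 8.68% of the 77553 aNPC H3K27ac peaks on chromosomes 1 to 19, and this loss is the rule itself and not a result. Of the 27939 aNPC peaks without H3K27ac at eA and lA, members were 24.1% (95% Wilson interval 23.6 to 24.6), a further 12426 met every other condition but kept an lA H3K4me1 peak (called keepers, and used as the comparison), and 8782 had no aNPC H3K4me1 peak.

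The cells were mouse cells of the C57/BL-6 background, grown in vitro, and the labels name no genetic change or siRNA at the stages used. The aNPC came from embryonic stem cells and were held in medium with EGF and FGF-2, whereas eA and lA were the same cells after 1 day and 5 days in medium with serum and LIF. Each mark was immunoprecipitated in 2 samples per stage, and the authors merged these before calling peaks, so each stage and mark has 1 list and no value below has a replicate error. Fisher's exact tests in the text therefore compare peaks of the merged lists, not cultures, and peaks are not replicates of a stage. The aNPC list held 79413 H3K27ac peaks with X and Y included, against 83433 for eA and 92700 for lA, and the H3K4me1 lists grew from 154238 peaks (aNPC) through 185478 (eA) to 208333 (lA). The depth behind the lists is unknown, and a region without a peak may still carry signal below the caller's threshold. Here, the identity of the cells was looked at only through the genes next to peaks, and the RNA-seq of the series was not analysed.

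Acetylation of lysine 27 on histone H3 is deposited by p300 and CBP at active enhancers and promoters, whereas monomethylation of lysine 4 marks enhancers in both their active and primed states. Enhancers that stop acting during differentiation lose acetylation as histone deacetylases act on them, and removal of the methyl mark by demethylases such as LSD1 is known as enhancer decommissioning. In neural progenitors, EGF and FGF signalling, SOX2 and the Notch effector HES1 are known for keeping cells proliferative and undifferentiated.

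Before the values, the DNA under 10 members is shown as examples of members described by name further on. They comprise 3 of the 10 members with the highest H3K27ac −log10 q, a promoter member, and members beside progenitor, signalling, cell cycle and astrocyte genes. Each run is the 200 bp around the H3K27ac summit, read 5′ to 3′ on the plus strand of mm9, with the window's coordinates. Capitals mark matches, on either strand, to 16 short motifs searched in every peak. The matches in these windows were the E-boxes CAGATG and CAGCTG, the NF1 half-site TTGGCA, the ETS motif AGGAAGT and the STAT motif TTCCNGGAA, and an ETS match can lie partly inside a STAT match. A window without capitals holds none of the 16 strings.
Ubr2 intron, chr17:47131732-47131931: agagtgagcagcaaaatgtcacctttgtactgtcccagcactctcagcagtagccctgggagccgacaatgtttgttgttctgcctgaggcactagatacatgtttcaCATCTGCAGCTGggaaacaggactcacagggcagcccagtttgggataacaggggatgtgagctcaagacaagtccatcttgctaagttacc
Cd82 intergenic, chr2:93256934-93257133: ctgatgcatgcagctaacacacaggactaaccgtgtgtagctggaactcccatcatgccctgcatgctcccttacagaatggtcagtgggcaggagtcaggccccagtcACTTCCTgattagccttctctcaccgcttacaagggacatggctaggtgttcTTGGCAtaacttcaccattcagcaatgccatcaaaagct
Hydin intron near Vac14, chr8:113062338-113062537: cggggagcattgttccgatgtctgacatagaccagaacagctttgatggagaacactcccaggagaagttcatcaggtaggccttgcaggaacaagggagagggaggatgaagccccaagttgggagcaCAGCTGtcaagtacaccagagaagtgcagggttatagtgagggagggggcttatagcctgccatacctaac
Igf2bp3 promoter, chr6:49165098-49165297: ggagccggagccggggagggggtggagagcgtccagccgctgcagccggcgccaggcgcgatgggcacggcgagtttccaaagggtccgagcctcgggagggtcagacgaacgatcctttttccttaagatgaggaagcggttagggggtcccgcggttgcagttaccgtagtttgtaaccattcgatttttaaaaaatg
Cdk6 first intronic member, chr5:3400378-3400577: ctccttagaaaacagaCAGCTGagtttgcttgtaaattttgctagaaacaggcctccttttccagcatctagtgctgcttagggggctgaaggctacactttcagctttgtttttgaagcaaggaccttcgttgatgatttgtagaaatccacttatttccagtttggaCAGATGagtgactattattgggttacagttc
Cdk6 last intronic member, chr5:3405593-3405792: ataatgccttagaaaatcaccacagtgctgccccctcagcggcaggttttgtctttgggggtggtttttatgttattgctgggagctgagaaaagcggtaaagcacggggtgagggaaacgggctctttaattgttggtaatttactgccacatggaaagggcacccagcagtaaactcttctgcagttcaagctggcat
Spred1 upstream, chr2:116935416-116935615: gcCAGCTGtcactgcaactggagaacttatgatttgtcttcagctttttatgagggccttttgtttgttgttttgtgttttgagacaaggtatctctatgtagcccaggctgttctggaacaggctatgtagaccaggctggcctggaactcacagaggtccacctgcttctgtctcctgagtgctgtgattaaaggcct
Hes1 downstream, chr16:30102169-30102368: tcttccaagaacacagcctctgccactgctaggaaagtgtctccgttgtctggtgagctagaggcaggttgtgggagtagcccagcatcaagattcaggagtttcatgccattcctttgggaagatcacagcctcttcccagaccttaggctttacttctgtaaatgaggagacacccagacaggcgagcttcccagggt
Sox2 downstream, chr3:34559110-34559309: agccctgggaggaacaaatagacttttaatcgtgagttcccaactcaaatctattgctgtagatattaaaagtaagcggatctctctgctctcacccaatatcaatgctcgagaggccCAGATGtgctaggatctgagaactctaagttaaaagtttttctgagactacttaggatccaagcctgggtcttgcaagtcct
Nfia upstream, chr4:97370944-97371143: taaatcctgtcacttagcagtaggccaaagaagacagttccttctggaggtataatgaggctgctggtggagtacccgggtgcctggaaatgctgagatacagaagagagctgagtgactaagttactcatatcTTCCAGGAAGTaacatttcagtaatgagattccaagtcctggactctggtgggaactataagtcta

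The E-box CAGATG, of the kind that proneural bHLH factors can bind, was present in 18.4% of the 6731 member windows, in 16.6% of keeper windows and in 14.8% of all aNPC windows of the same length. CAGCTG, the palindromic E-box, was in 13.5% of members, 12.9% of keepers and 12.2% of all windows. For the NF1 half-site, bound by the nuclear factor I family, the shares were 12.1%, 12.7% and 11.1%. AGGAAGT, bound by ETS factors that act downstream of FGF signalling, was found in 7.49% of members, 6.54% of keepers and 5.63% of all windows. The AP-1 string TGANTCA was found in 6.57%, 6.55% and 5.85%, respectively. The TEAD string GGAATGT was in a lower share of members (2.30%) than of keepers (3.23%) and all windows (2.89%). The STAT string was rare in all sets (0.565%, 0.668% and 0.650%). The GC box GGGCGG, a promoter motif, was in 2.60% of members and 3.22% of keepers against 9.39% of all aNPC windows. Of neural and stem cell factors, the SOX string ACAATGG was in 3.12%, 2.91% and 2.69% of members, keepers and all windows, the POU octamer ATTTGCAT in 1.34%, 1.13% and 0.91%, the homeobox string CTAATTA in 1.53%, 1.6% and 1.37% and the Rfx half-site GTTGCCA in 2.38%, 2.28% and 2.25%. The remaining strings were RUNX TGTGGTT (4.31%, 4.36% and 3.92%), MEF2, CTA and TAG with 4 bases of any kind between them (3.49%, 3.23% and 2.84%), the C/EBP and ATF composite TTGCATCA (0.802%, 0.893% and 0.703%) and the CRE TGACGTCA (0.149%, 0.105% and 0.168%), and none of these 8 differed by more than 1 percentage point between members and keepers. Member windows had a median GC content of 47.5%, as had keepers, against 49% for all aNPC peaks, and held on average 2.26 CpG dinucleotides against 2.41 in keepers and 4.77 in all. Within steps of GC content, CAGATG was in 15.4% of the 2759 members and 15.1% of the 4862 keepers from 23.5% to 46% GC, and in 20.8% of 2505 members and 17.5% of 4768 keepers from 46% to 52.5%. Above 52.5% GC it was in 19.8% of 1467 members and 17.7% of 2796 keepers. These motif shares are descriptions of letters in a window and were not tested.

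H3K4me1 at the day in between was not used by the rule, but members and keepers were divided by the same mark at lA. A difference between them at eA is therefore not independent of that division. At eA, after 1 day of differentiation, all members had no H3K27ac peak by the rule, but 4488 of 6731 (66.7%, 65.5 to 67.8) still overlapped an H3K4me1 peak. At these members the methyl mark was therefore still called at the stage where the acetyl mark was no longer called. The other 2243 (33.3%, 32.2 to 34.5) had no eA H3K4me1 peak either, and 1393 of them (62.1%) had one within 1 kb. Among keepers, 11768 of 12426 (94.7%, 94.3 to 95.1) overlapped an eA H3K4me1 peak. The difference of −28.0 percentage points (−29.2 to −26.8) corresponded to an odds ratio of 0.112 (0.102 to 0.123; two-sided Fisher's exact test, adjusted p = 1e-300 over 4 tests, the smallest value written).

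**Figure D1:**
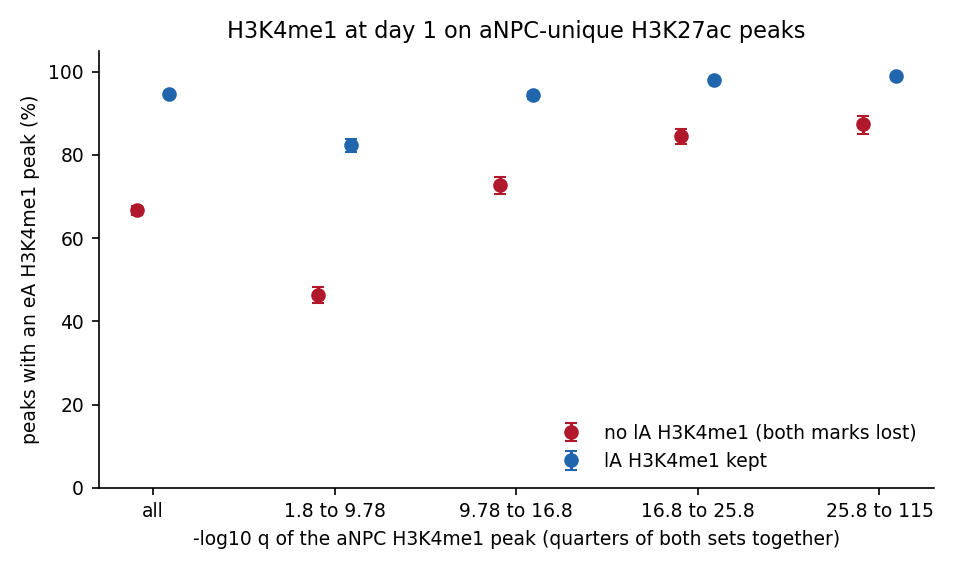
Share of aNPC-unique H3K27ac peaks that overlapped an eA H3K4me1 peak (%, points with 95% Wilson intervals), for members and keepers, over all peaks and in 4 steps of equal size by the −log10 q of the aNPC H3K4me1 peak. Members lie below keepers in every step, from 46.3% against 82.3% in the weakest to 87.3% against 98.9% in the strongest.

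In the progenitors, members had H3K4me1 peaks of lower significance and smaller width. The −log10 q of their aNPC H3K4me1 peak had a median of 12.2 (middle 50% from 6.86 to 19.97), against 19.7 in keepers and 22.4 over the aNPC H3K27ac peaks with an H3K4me1 peak. That H3K4me1 peak had a median width of 566 bp in members, 828 bp in keepers and 887 bp in all. Among members, those without eA H3K4me1 had the lower median −log10 q, with 7.56 and a width of 372 bp, against 14.7 and 672 bp in those that lost the mark after day 1. The strength of this peak moved with the day 1 result, so members and keepers were also set side by side within steps of it. In the weakest step (−log10 q from 1.80 to 9.78), 46.3% of 2642 members had eA H3K4me1 against 82.3% of 2099 keepers. In the strongest (25.8 to 115), it was 87.3% of 869 members against 98.9% of 3921 keepers. The odds ratio was between 0.0802 and 0.185 in the 4 steps, so members lay below keepers in each step. The steps are wide, and the strength of the peak may still differ between members and keepers within a step.

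The H3K27ac peaks of members were narrow and of modest significance. They had a median width of 299 bp (middle 50% from 214 to 452) and a median −log10 q of 6.18 (4.34 to 9.63), against 337 bp and 6.73 in keepers and 435 bp and 9.78 in all aNPC peaks. The fold of H3K27ac over local background at the summit was 3.48 at the median in members, 3.56 in keepers and 3.94 in all. Members were 13.7% of the aNPC peaks with a −log10 q below 5.38, 12.6% from 5.38 to 9.78, 7.23% from 9.78 to 27.8, and 1.24% (241 of 19390) above that. Progenitor enhancers that lost both marks were thus rare among the strongest peaks, and keepers fell from 22.1% to 3.56% over the same steps. Across the 6731 members, the −log10 q of the H3K27ac peak and that of its H3K4me1 peak had a Spearman rank correlation of 0.084, given as a description since the values share regions and culture stage but come from separate immunoprecipitations. The H3K27ac summit lay inside the aNPC H3K4me1 peak in 76.4% of members and 88.9% of keepers.

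How complete the loss was around members also varied. The nearest lA H3K4me1 peak was 1141 bp away at the median, at most 200 bp in 22.2% of members, farther but at most 1 kb in 26.2%, up to 10 kb in 38.6% and beyond that in 13.0%. In 75.8% of members (5102), no part of the aNPC H3K4me1 peak overlapped an lA peak, so the whole methylated region and not only the acetylated stretch had no peak. The nearest eA and lA H3K27ac peaks were 9355 bp and 8959 bp away at the median, and 77.4% of members (5208) had neither within 1 kb, against 67.4% of keepers. At the edge of the rule, 86 members lay within 10 bp of an lA H3K4me1 peak and 126 keepers overlapped one by 10 bp or less. The median −log10 q was 5.85 inside and 6.23 outside for H3K27ac, and 19.1 and 18.1 for H3K4me1. At this edge an eA H3K4me1 peak was present at 88.4% of the 86 members and 80.2% of the 126 keepers, so the order of the whole sets (66.7% and 94.7%) did not hold there.

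By position, members were distal elements. Peak centres of 3255 members (48.4%) were intergenic, 3124 (46.4%) intronic, 212 (3.15%) exonic and 140 (2.08%) at a promoter, meaning from 1 kb before to 100 bp after a coding start site. The median distance to the nearest coding start site was 45732 bp, against 42093 bp for keepers and 25651 bp for all aNPC peaks. Members made up 10.6% of the intergenic aNPC peaks and 9.05% of the intronic ones, but 1.59% of the 8786 promoter peaks. Promoter positions were fewer than among keepers (408, 3.28%), with an odds ratio of 0.626 (0.511 to 0.762; two-sided Fisher's exact test, adjusted p = 2.23e-06). The same exact test no longer gave a call when no absent mark was allowed within 1 kb (odds ratio 0.945, adjusted p = 0.795). The intergenic share did not differ detectably from the 48.3% of keepers (difference of 0.072 percentage points, −1.41 to 1.55; odds ratio 1.00, two-sided Fisher's exact test, adjusted p = 0.928).

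**Figure D2:**
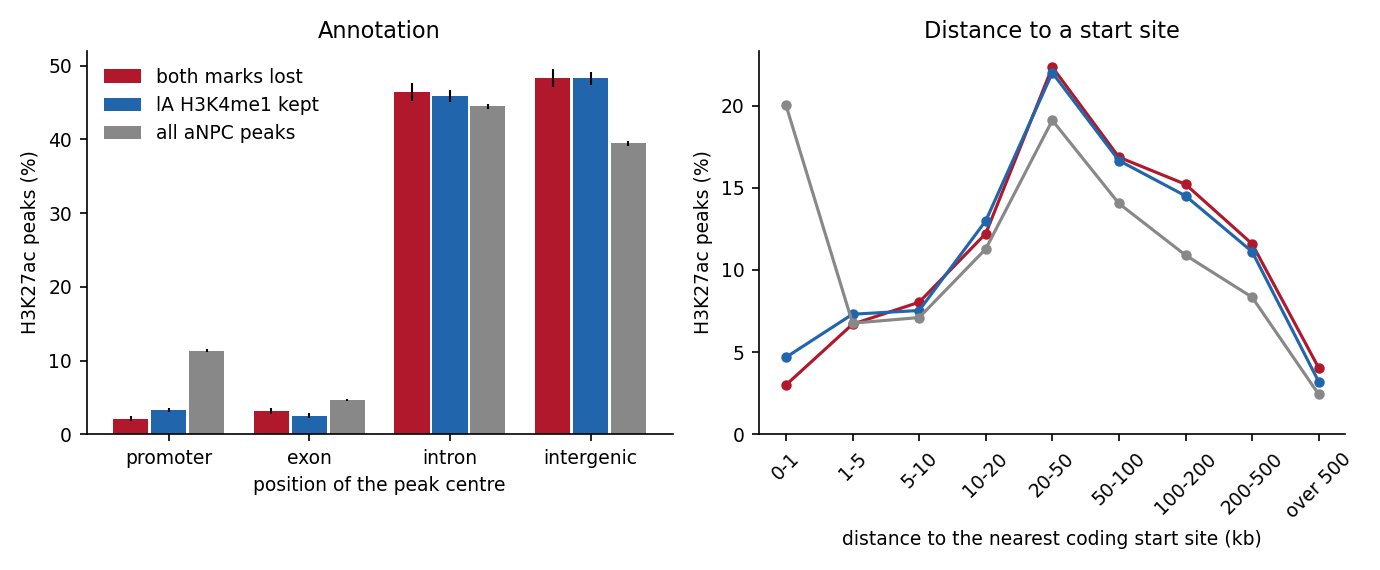
Left, share of H3K27ac peaks (%) by position of the peak centre for members, keepers and all aNPC peaks (bars start at 0, lines are 95% Wilson intervals). Right, share of peaks (%) by distance to the nearest coding start site in kb. Members and keepers follow each other closely and both have few peaks within 1 kb of a start site (3.001% and 4.68%) compared with all aNPC peaks (20.03%).

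The strongest members lay at genes of diverse function. The highest H3K27ac −log10 q among members, 195, belonged to a 1642 bp peak in an intron of Ubr2, which encodes an E3 ubiquitin ligase of the N-end rule pathway (chr17:47131172-47132813, fold 10.15). The nearest lA H3K4me1 peak was 9978 bp away and the nearest eA and lA H3K27ac peaks 6033 and 13301 bp away, so this region stood clear of them, although H3K4me1 was still called at eA. A 1655 bp intergenic peak 35775 bp downstream of a start site of Cd82, a tetraspanin, had a −log10 q of 129.8 with the nearest lA H3K4me1 at 4443 bp (chr2:93256234-93257888). An 820 bp peak in an intron of Hydin, a gene of motile cilia, was nearest to Vac14, a scaffold of the PIKfyve lipid kinase complex, 80085 bp away, and had a −log10 q of 99.0 with lA H3K4me1 no closer than 12593 bp (chr8:113062008-113062827).

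Other members of high significance lay beside later peaks. An intergenic peak 127925 bp downstream of the start site of Arhgap12 had a −log10 q of 147.7 with eA H3K27ac 445 bp away. At Nupr1, which encodes a stress-induced nuclear protein, the intronic peak (137.3) was 47 bp from an lA H3K4me1 peak. Those next to Glt25d2, a collagen galactosyltransferase (100.3), and to the predicted gene Gm4968 (95.5) were 33 and 103 bp from an eA H3K27ac peak. For Vdac2, a porin of the outer mitochondrial membrane, the member 9002 bp upstream (97.2) had eA H3K27ac at 150 bp, and for Ccdc136 (130.5) the nearest eA H3K27ac was at 1270 bp. These members lay next to later peaks, whereas those at Ubr2, Cd82 and Hydin had no lA peak of either mark and no eA H3K27ac peak within 4 kb.

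Among the 140 promoter members, the peak of Kif21b, a neuronal kinesin, had the highest −log10 q (146.8) and lay 617 bp before the start site, with eA and lA H3K27ac 269 and 333 bp away. The member at Ccnd1, which encodes cyclin D1 of the G1 phase (69.4, 503 bp before the start), likewise had eA and lA H3K27ac at 382 and 693 bp. At the promoter of Igf2bp3, an RNA-binding protein of fetal tissues, the picture was different. The member 214 bp before its start site (chr6:49164824-49165509, −log10 q 38.1, fold 7.65) was 47304 bp from the nearest eA H3K27ac peak and 46792 bp from the nearest lA peak, had no eA H3K4me1, and had its nearest lA H3K4me1 at 510 bp. Igf2bp3 was named after its values were seen, as 1 of the 6 promoter members with the highest −log10 q.

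Genes were then given to members by the nearest coding start site, if the member lay in a gene or within 50 kb of that start. In this way 4739 members (70.4%) fell to 2858 genes. These were 13.4% of the 21275 coding genes of chromosomes 1 to 19 and 20.5% of the 13960 genes given any aNPC H3K27ac peak. Of the 2858, 1777 also had a keeper, 1808 had a single member and the most on 1 gene was 13. The nearest start site is not evidence that a member acts on that gene, and some members lie inside another gene.

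Long genes carried the most members. Cdkal1, a tRNA-modifying enzyme, had 13 members among 59 aNPC peaks (22.0%), with 12 of them intronic and only 4 with H3K4me1 still called at eA. Auts2, a neurodevelopmental gene, had 12 of 67 (17.9%), and 8 of them had eA H3K4me1. Magi2, a synaptic scaffold, had 11 of 46 (23.9%) and all were intronic, whereas Rptor, the raptor subunit of mTORC1, had 11 of 51 (21.6%). Ntm and Kirrel3, adhesion proteins of the immunoglobulin superfamily, had 10 of 33 (30.3%) and 10 of 68 (14.7%), and Npas3, a bHLH-PAS transcription factor of the developing brain, 10 of 62 (16.1%) with eA H3K4me1 at 4. Of these, 2 members counted for Ntm lay in exons of Opcml and 2 counted for Npas3 in introns of Akap6. The guidance molecule Sema5a had 9 of 45 with −log10 q up to 43.7, the spindle checkpoint gene Mad1l1 and the cadherin Cdh20 each 9 of 26 (34.6%). At Cdh20 all 9 kept H3K4me1 at eA. All 10 genes exceeded the 8.68% of aNPC peaks that were members, but they were picked for their counts and span from 227 kb to 1479 kb. At 3 of the 9 genes with promoter H3K27ac in aNPC (Ntm, Sema5a and Cdh20), no lA H3K27ac peak overlapped the promoter. Among genes with promoter H3K27ac in aNPC, the same held for 16.0% of those given a distal member and 9.97% of all coding genes. The 9 genes were picked for their counts, and the difference was not tested. Kirrel3 had no promoter H3K27ac at any stage.

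**Figure D3:**
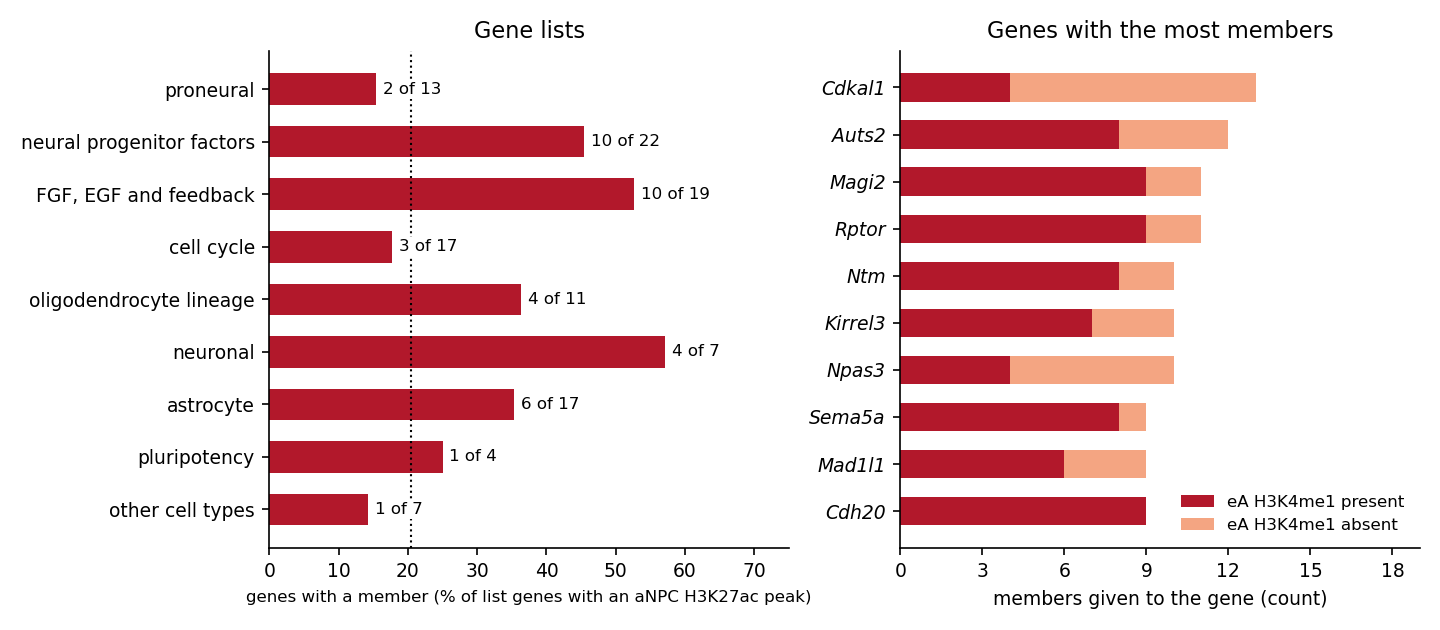
Left, share of the genes of 9 lists that were given a member (% of list genes with any aNPC H3K27ac peak, with counts), and the same share over all genes (dotted line, 20.5%). Right, the number of members given to the 10 genes with the most, split by whether H3K4me1 was still called at eA. Cdkal1 leads with 13, and the share with eA H3K4me1 runs from 4 of 13 there to 9 of 9 at Cdh20.

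Among EGF and FGF receptors and their feedback regulators, 10 of 19 genes were given a member, against 20.5% of all genes with an aNPC peak. The receptors were Egfr and Fgfr1, with 1 member each. Of the inhibitors of the pathway, Spred1 had 3 members, Spry1 (with 1 of its members in an intron of Spata5), Il17rd and Dusp6 2 each, and Dusp4 and Phlda1 1 each, and the ETS factors Etv1 and Etv4, induced by FGF, had 2 and 1. Members were 16 of the 217 aNPC peaks of these genes (7.37%), which is below the 8.68% over all peaks. The share of genes with a member was thus above that of all genes while the share of peaks was not, and 45 of the 217 peaks were keepers. Upstream of Spred1, a peak of 1003 bp centred 11413 bp before the start site (chr2:116935196-116936198) had a −log10 q of 35.8 and eA H3K4me1, and its neighbour 12453 bp before the start (13.8) had none. Both were over 9 kb from any eA or lA H3K27ac peak and 2697 and 3142 bp from lA H3K4me1. The third lay 34169 bp before the start, 134 bp from an lA H3K4me1 peak. H3K27ac stayed at the Spred1 promoter in all stages. Of the 18 genes of the list with promoter H3K27ac in aNPC, 2 had none in lA, Etv4 among them, against 9.97% of all coding genes with it.

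Of 24 neural progenitor factors found in the annotation, 22 had an aNPC peak and 10 of these (45.5%, against 20.5% of all genes with a peak) were given a member (Sox2, Hes1 and Rfx4 with 2 each, and Pax6, Nes, Fabp7, Otx1, Emx2, Sox4 and Sox11 with 1). Members were 13 of their 134 aNPC peaks (9.70%), near the 8.68% of all. Promoters of 9 of these 10 genes had H3K27ac at all stages, and that of Hes1 had it in aNPC and lA. At eA, an H3K27ac peak lay just outside the promoter window of Hes1, from 0.251 to 1.673 kb after its start site. Of the 18 genes of the list with promoter H3K27ac in aNPC, 1 had none in lA, against 9.97% of all coding genes with it. For Sox2, the pluripotency and neural stem cell factor, a member 10215 bp downstream of the start (chr3:34559015-34559530, −log10 q 37.4) and another 23929 bp upstream (9.02) both had no eA H3K4me1, with lA H3K4me1 at 592 and 346 bp. At Hes1, a repressor induced by Notch, adjacent members 37074 and 37930 bp downstream (14.97 and 12.7) were over 10 kb from all later H3K27ac, and the closer of them had no H3K4me1 at eA while the other had. The member 8531 bp before Fabp7, the brain lipid-binding protein of radial glia, was 1619 bp wide (20.4) but lay 67 bp from an lA H3K27ac peak and 52 bp from lA H3K4me1.

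**Figure D4:**
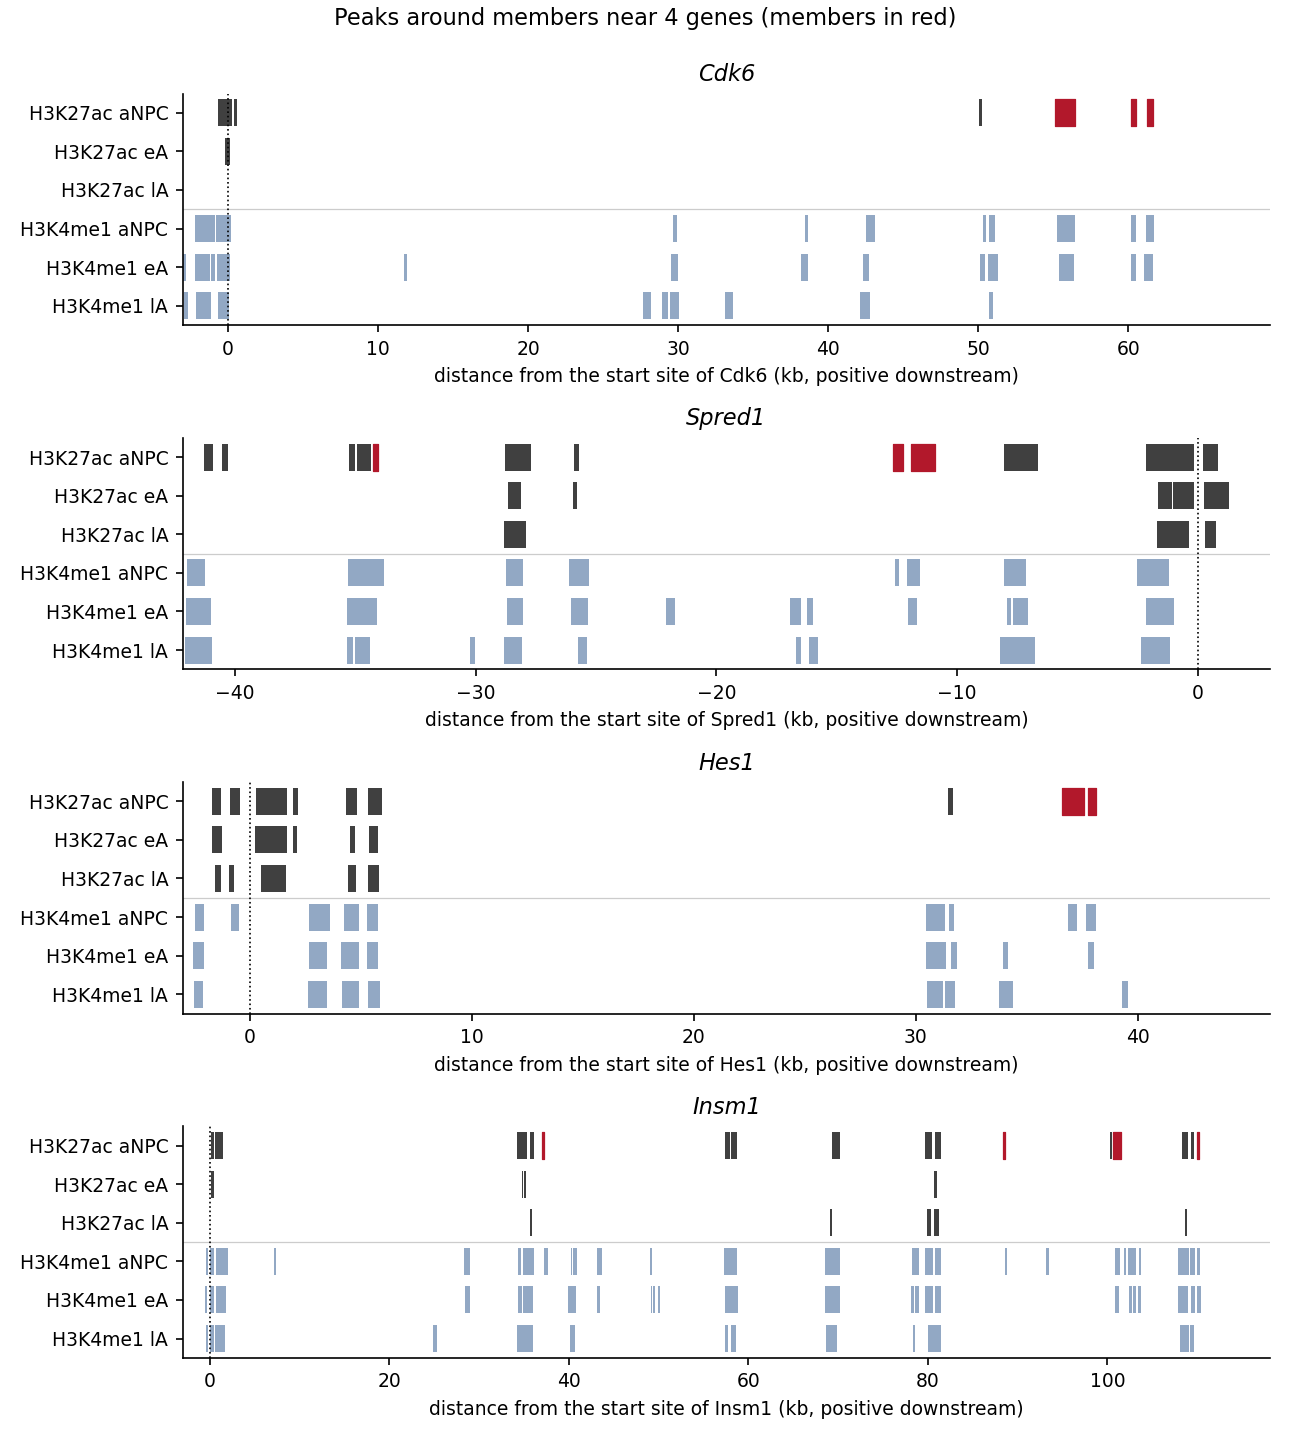
Peaks of the 6 lists as bars around Cdk6, Spred1, Hes1 and Insm1, drawn to scale in kb from the start site of each gene (dotted line), with members in red, other H3K27ac peaks in dark grey and H3K4me1 peaks in blue. No eA or lA H3K27ac peak lies within 10 kb of the members of Cdk6 and Hes1, and at Cdk6 the H3K4me1 row of eA still has a peak under each of the 3.

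Cell cycle genes had members at shares near those of all genes. Of 18 genes, 17 had an aNPC peak and 3 were given a member (17.6% against 20.5% of all genes with a peak), and members were 5 of 63 peaks (7.94% against 8.68%). Cdk6, the kinase partner of D-type cyclins, had 3 intronic members within 7 kb of each other. They were centred 55773, 60356 and 61438 bp from its start site (chr5:3399404-3400766, chr5:3404486-3404850 and chr5:3405537-3405962), with −log10 q of 27.6, 9.35 and 32.7. All 3 had H3K4me1 at eA, their nearest lA H3K4me1 was 4118, 9200 and 10251 bp away, and no eA or lA H3K27ac lay within 54 kb. In the drawn window Cdk6 had 6 aNPC, 1 eA and 0 lA H3K27ac peaks, the eA peak at the promoter, so both its promoter and these members were without H3K27ac at lA. Ccnd2, cyclin D2, had a member 12783 bp before its start (3.54), 460 bp from lA H3K4me1. Of the 17 genes, 16 had promoter H3K27ac in aNPC, and 8 of the 16 had none in lA, against 9.97% (1087 of 10902) of all coding genes with it. Peaks just outside the promoter window do not count here, and Ccnd1 was among the 8 although lA H3K27ac lay 693 bp from its promoter member. Only Cdk6 and Ccnd1 of the 8 had a member, so this count describes the list and not the members.

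Genes of the neuronal and glial lineages were counted next. Of 15 proneural genes, 13 had an aNPC peak and 2 had a member, 15.4% against 20.5% over all genes. Insm1, a zinc finger factor of newborn neurons and endocrine cells, had 4, all in introns of the neighbouring Ralgapa2 and from 37114 to 110100 bp downstream of its start. The strongest (chr2:146148235-146149147, −log10 q 13.1) was 6586 bp from lA H3K4me1, and 2 of the 4 had eA H3K4me1. Of the 7 with promoter H3K27ac in aNPC, 4 had none in lA (against 9.97% of all coding genes), Insm1 among them. Members were 5 of the 67 aNPC peaks of the proneural list (7.46%, against 8.68% of all). In the oligodendrocyte list, 4 of the 11 genes with a peak (36.4%, against 20.5% of all) had a member, and members were 5 of their 78 peaks (6.41%, against 8.68% of all). For Olig2, the oligodendrocyte and motor neuron factor, these lay 8814 and 21145 bp downstream (27.2 and 5.68), for Olig1 3969 bp upstream (24.7), for Cspg4, the NG2 proteoglycan, 15995 bp downstream (23.0), and for Nkx6-2 in an intron of Inpp5a (5.13). These 5 members were all within 445 bp of an lA H3K4me1 peak, so none stood in a region clear of the mark.

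Of 16 neuronal genes, 7 had any aNPC H3K27ac peak, and 4 of these 7 (57.1%, against 20.5% of all genes with a peak) were given a member. Members were 7 of the 58 aNPC peaks of these genes (12.1%, against 8.68% of all). Map2, under its older symbol Mtap2, had 3 of 30 peaks, of which 2 shared 1 H3K4me1 peak, Syt1, the calcium sensor of synaptic vesicles, had 2, and Elavl4 and Gad1 had 1 each. The member 225298 bp into Syt1 (−log10 q 12.4) was 90886 bp from eA H3K27ac and 13743 bp from lA H3K4me1. Of 18 astrocyte genes, 17 had an aNPC peak and 6 of these (35.3%, against 20.5% of all genes with a peak) had a member. Promoters of 5 of these 6 had an H3K27ac peak at all stages, and that of the other, Id3, had none at any stage. Of the 12 genes of the astrocyte list with promoter H3K27ac in aNPC, 1 had none in lA, against 9.97% of all coding genes with it. Nfia, a factor that drives gliogenesis, had 6 members of 42 peaks, 4 within the gene and 2 upstream in E130114P18Rik, and its kin Nfib had 3 of 60. The strongest at Nfia lay 68286 bp upstream (chr4:97370812-97371465, −log10 q 39.6), with eA H3K4me1 and with lA H3K4me1 305 bp away. Slc1a2 and Slc1a3, the astroglial glutamate transporters, had 1 of 15 each, and members were 13 of 202 aNPC peaks of the astrocyte list (6.44%, below the 8.68% of all peaks).

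Markers of stem cells and of other cell types were examined in the same way. Of 8 pluripotency genes, 4 had an aNPC peak and 1 of these 4 (25%, against 20.5% of all genes with a peak), the orphan nuclear receptor gene Esrrb, had 3 members (−log10 q 8.02, 6.77 and 5.38), each over 5 kb from lA H3K4me1 and with eA H3K4me1. These were 3 of the 20 aNPC peaks of the list (15%, against 8.68% of all peaks), the highest peak share of the 9 lists but from the fewest peaks. Of 16 endothelial, microglial, mesenchymal and endodermal genes, 7 had an aNPC peak and only Ptprc, the leukocyte phosphatase CD45, had a member, 33074 bp upstream (8.64), as 1 of 28 peaks of the list (3.57%).

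Members also came in groups. With members linked when 10 kb or less apart, 2110 (31.3%) had a neighbour, in 865 pairs, 94 groups of 3 and 23 larger groups. This share was not counted for keepers or all aNPC peaks, so grouping is not shown to be particular to members. A member overlapped 1 aNPC H3K4me1 peak in 6482 cases and more in the rest, and 1028 members shared their H3K4me1 peak with another, so neighbouring members are not independent. The largest group held 6 members over 16.9 kb nearest to the predicted gene Gm17582 (chr13:25820819-25837722), where 7 aNPC H3K27ac peaks were followed by 2 at eA and 1 at lA. Around 5 members nearest to Dsel, a dermatan sulfate epimerase-like gene (chr1:115309054-115320359), 6 aNPC H3K27ac peaks were followed by 0 at eA and 0 at lA, and H3K4me1 peaks went from 5 through 3 to 1. At 4 members nearest to Pde10a, a phosphodiesterase (chr17:8902778-8921666), where the strongest −log10 q was 62.3, the H3K4me1 peaks numbered 3, 5 and 0. Groups of 4 near Wnt7b, a Wnt ligand, and Serpine2, a secreted protease inhibitor, went from 2 through 3 to 2 and from 5 through 1 to 0 H3K4me1 peaks. These groups were picked from the larger ones after their values were seen, and the absence of lA H3K4me1 at the members themselves is part of the rule.

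The last comparison asked whether promoters of genes next to members lost H3K27ac. Distal members and keepers were those with a centre outside promoters, so the edge of such a peak could still reach into a promoter. The measure was therefore not fully apart from the regions that the rule used. Of 658 genes with promoter H3K27ac in aNPC, a distal member and no distal keeper, 108 (16.4%, 13.8 to 19.4) had no lA H3K27ac peak at a promoter. Of 1611 such genes with a distal keeper and no distal member, it was 239 (14.8%, 13.2 to 16.7). The difference of 1.58 percentage points (−1.62 to 5.02) gave an odds ratio of 1.13 (0.871 to 1.45; two-sided Fisher's exact test, adjusted p = 0.491), so no difference was detected, and the interval includes both directions. Over all coding genes, 1087 of 10902 (9.97%) lost promoter H3K27ac in this way.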

How the data were processed

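ChIP-seq of H3K27ac and of H3K4me1 covered aNPC, eA and lA, with 2 samples for each stage and mark. The authors aligned the reads to mm9 with Bowtie, merged both samples of a stage with SAMtools (0.1.19 in the submitters' processing notes) and called peaks with MACS2 without an input control. The peak lists that the authors deposited give a whole-number score derived from significance, the fold (the ratio of reads at the summit to the local background), the summit position and the −log10 of the q-value at the summit. No level was compared between lists; values of different lists met only in a rank correlation across members and in a common −log10 q threshold used as an alternative. The deposited files are peak lists without read counts, so depth is unknown. The 8 RNA-seq libraries whose labels conflict were left unassigned, and RNA-seq and knockdown samples were not analysed here.

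Peaks of chromosomes 1 to 19 were tested against the rule. On X and Y, 196 of 1860 aNPC peaks met its other conditions and were left out. Positions and genes came from GENCODE M1 (45974 coding start sites, genes pooled by symbol), and sequences from the mm9 genome. Sox1 had no entry, and Map2 and Myrf were matched through RefSeq synonyms. Shares carry 95% Wilson intervals for counting error over peaks. The 4 Fisher's exact tests were adjusted by the Benjamini-Hochberg method. Motifs were matched exactly in 200 bp windows. Named were the 10 genes with the most members, the 10 members with the highest −log10 q, and up to 4 genes with the most members in each of 9 gene lists; members, lists and motifs were chosen with earlier results of these data known, and genes named beyond this rule were chosen after their values were seen. A member of the proneural list is not reported here. The scripts were tested on simulated lists with planted members and used Python 3.11.15, NumPy 2.4.6, SciPy 1.17.1, pandas 2.3.3 and matplotlib 3.10.9.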

Additional observations from a re-analysis of the deposited data

How the results depend on the processing

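The number of members moved to 3896 with a −log10 q of at least 5 for the aNPC peaks and to 3290 with no absent mark within 1 kb, and was between 5162 and 9062 in the other 4 settings (overlap of 50% of the peak, summit inside the other peak, that threshold in all lists, and lists of equal length). The lower share of eA H3K4me1 in members kept its direction and call in all 6 planned settings, and in 12 comparisons within steps of peak strength or width that were added after seeing the data. The lower promoter share was lost with no absent mark within 1 kb (odds ratio 0.945). For the intergenic share, never past the threshold, the odds ratio was 0.952 and 0.969 with that threshold in the aNPC lists and in all lists, 0.995 with lists of equal length and 0.948 with no absent mark within 1 kb, below 1 in place of above. That for promoter H3K27ac loss, also never past it, was 0.835 with the summit rule, 0.993 with lists of equal length and 0.916 with no absent mark within 1 kb. The cause was not tested. No paired analysis was possible because both replicates of a stage were merged before peaks were called, and for the same reason no replicate could be left out. The unknown depth limits every absence to the caller's threshold.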

Other observations

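Members were spread over all 19 autosomes, from 7.18% of the aNPC H3K27ac peaks on chromosome 11 (372 of 5179) to 9.61% on chromosome 1 (532 of 5535). The ratio of members to members and keepers together ran from 32.1% on chromosome 9 to 37.8% on chromosome 10. Among members, 4409 (65.5%) had an H3K27ac −log10 q of at least 5.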
